A study of Danio rerio with 24 samples.

Results

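The genes described here repair DNA by homologous recombination, by the Fanconi anemia pathway and by mismatch repair. They were taken by name from the table of read counts, from the genes whose symbol begins with fanc, rad50 to rad59, xrcc, msh or mlh followed by a digit, brca, bard1, brip1 or palb2, or is blm. The 35 genes described stand among 32266 in the table, and 34 of them had enough reads to be tested. The name rule also brought in xrcc1, xrcc4, xrcc5 and xrcc6, which act on single-strand breaks and in end joining, and rad54l2 and xrcc6bp1, which share only the name. All 35 Ensembl identifiers were found in a table of gene names.

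Tumor tissue came from 10 adult WIK zebrafish, 6.5 to 10 months old by their labels, whose *rb1* gene had been cut somatically with TALENs, a pair of designed nucleases. Normal tissue came from wild-type siblings of that age range, in 2 control pools of 3 fish each. The targeted fish were mosaics in which only some cells carry a lesion, and the dissected side of the brain, which spans diencephalon, midbrain and cerebellum, could hold normal tissue besides tumor. RNA was read from 2 replicate libraries per RNA sample, named a and b, and each letter had its own sequencing lane. The comparison asks how the expression of these repair genes differs between *rb1* tumors and normal adult brain, and how it varies from tumor to tumor.

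Homologous recombination copies the sequence lost at a double-strand break from the sister chromatid, and so works mainly in cells that have replicated their DNA. Brca2, brought to the break with Palb2, prepares the resected strand for its invasion of the intact copy. The Fanconi pathway acts where a crosslink stops a replication fork: a core complex attaches ubiquitin to the pair Fancd2 and Fanci, which recruits nucleases and recombination proteins. Mismatch repair follows the replication fork, where MutS proteins such as Msh6 and Msh3 find wrongly paired bases and MutL proteins start their removal. Most cells of the adult brain are post-mitotic neurons and glia, outside the phases of the cell cycle in which recombination works.

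The tumors had summed counts of 18.5 to 24.95 M (mega), and the control pools had 19.75 M and 21.04 M. A floor of 3 counts was 0.119 to 0.153 CPM (counts per 1 M counts after scaling), and such floors cover counting error only. Divided by its degrees of freedom, the chi-square between the a and b counts of a tumor was 1.04 to 1.6, where 1.00 is sampling noise. The control libraries did not follow their labels: same-letter libraries of different pools differed by 1.00 to 1.01, and libraries of different letters by 3.25 to 3.42. Different letters are also different lanes, as they are for each tumor, whose a and b libraries differed by 1.04 to 1.6. Whether the control labels are crossed was not tested. Summed by label, each pool joins an a and a b library, and the pools differed by 1.01, within sampling noise. The sums by letter differed more (5.36). The spread between the labelled pools may thus be technical, and it may understate the spread between pools of different fish. For 27 members with at least 50 counts over both pools, the ratio of the letter sums had a median of 1.09 and a maximum of 1.69, at msh4. The targeted gene rb1 itself stood at 18.8 to 101 CPM in tumors, against 13.1 and 14.6 CPM in the pools (log2 fold change 1.47, SE 0.61, adjusted p = 0.0481). A TALEN lesion changes the transcript's sequence and not necessarily its count.

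Most of the set was upregulated in *rb1* tumors. Of 34 members tested, 27 (79.4%) were higher and 0 were lower than in normal adult brain in edgeR's quasi-likelihood test. A call needed a 1.5-fold change and a Benjamini-Hochberg adjusted p, over all genes, no larger than 0.01. Among all 20957 genes tested, 22.8% were higher, 24.9% were lower and 47.7% changed in either direction. For 29 members (85.3%) all 10 tumors lay above both pools, against 31.5% of all genes, and for 0 members all lay below, against 32.8%. The median log2 fold change of the members was 2.57, and 0.09 over all genes. It was 2.70 without rad54l2 and xrcc6bp1. A called rise of at least 4-fold was found for 21 members (61.8%, against 7.88% of all genes) and of at least 8-fold for 13 (38.2%, against 3.83%). DESeq2 called 29 members higher and 0 lower, and with control libraries summed by letter the same 27 members were called. With all samples, edgeR likewise had 0 members lower at an unadjusted p under 0.05.

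**Figure D1:**
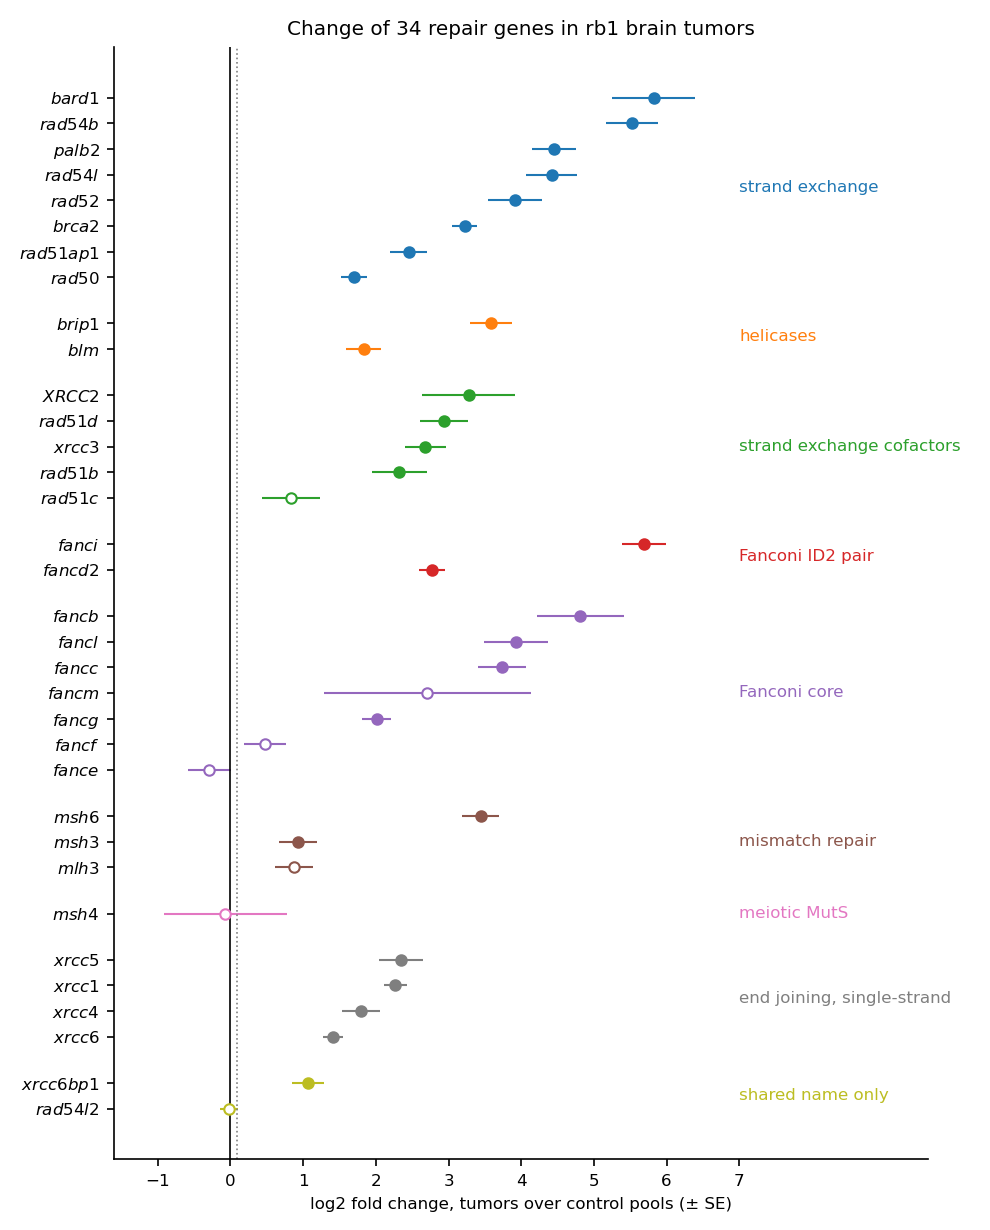
Log2 fold change, tumors over control pools, with its SE, for the 34 tested genes ordered by role. Filled circles passed the test and open circles did not; the dotted line marks the median of all genes, 0.09. The genes bard1 (5.82), fanci (5.69) and rad54b lie farthest to the right, and fance, msh4 and rad54l2 lie at or just below 0.

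The genes of break resection and strand exchange rose as a group: 8 of 8 were higher, with a median log2 fold change of 4.16. The level of brca2, a mediator of strand exchange, ranged from 54.2 CPM over a median of 70.6 to 79.9 CPM in tumors, against 7.78 and 7.07 CPM in the pools (log2 fold change 3.22, SE 0.17, adjusted p = 2.95e-08). Its partner palb2 was at 18.6, 24.8 and 31.6 CPM in the lowest, median and highest tumor, against 1.3 and 0.861 CPM in the pools, a log2 fold change of 4.45 (SE 0.30). Both genes separated tumors from normal brain in 10 of 10 tumors.

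The member with the largest rise was bard1, which encodes the binding partner of Brca1 in a ubiquitin ligase. It was almost unread in normal brain, with 5 and 6 counts, or 0.242 and 0.272 CPM. In tumors it was at 8.86 CPM in the lowest, 13.6 CPM in the median and 26.5 CPM in the highest, a log2 fold change of 5.82 (SE 0.57, adjusted p = 3.95e-06). The tumors themselves differed more for bard1 than for most members, with a coefficient of variation of 37.1%.

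Rad54l and rad54b encode motor proteins that help the broken strand invade the intact copy. The level of rad54l was 22.6 to 50.7 CPM in tumors (median 37.9), against 1.84 and 1.72 CPM in the pools, and the log2 fold change was 4.42 (SE 0.35). For rad54b the tumors had 3.98 to 8.0 CPM (median 6.89), against 3 and 3 counts in the pools. With so few counts the fold is best given as a ratio of scaled counts, 47.8, with a 95% counting interval of 21.9 to 131. Rad52, which anneals single strands, was at 16.3, 29.2 and 38.0 CPM in the lowest, median and highest tumor, against 2.22 and 1.63 CPM in the pools (log2 fold change 3.91, SE 0.37). All of these levels were well apart between tumors and pools.

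Smaller rises within this group were those of rad51ap1, a cofactor of strand exchange (10.7 to 18.5 CPM in tumors, against 2.75 and 2.99 CPM in the pools, log2 fold change 2.45), and of rad50. Rad50 is part of the complex that first binds and resects the break, also in end joining and checkpoint signaling. It was at 67.9 to 107 CPM in tumors, against 24.6 and 23.9 CPM in the pools, and its log2 fold change of 1.70 (SE 0.18) was the lowest of the 8. Even so, no tumor overlapped the pools.

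Both helicases rose. Blm, which unwinds recombination intermediates and dissolves double Holliday junctions, was at 21.5, 30.1 and 41.7 CPM in the lowest, median and highest tumor, against 8.94 and 8.25 CPM in the pools (log2 fold change 1.83, SE 0.24, adjusted p = 2.93e-05). Brip1, a helicase of the Fanconi pathway that binds Brca1, was at 46.8, 62.3 and 88.0 CPM, against 5.36 and 5.26 CPM in the pools (log2 fold change 3.58, SE 0.29). The order of the pair turned between pools and tumors, in CPM and also per length of exon. In FPKM (counts per kilobase of exon and per 1 M counts), blm and brip1 had medians of 6.0 and 15.1 in tumors, and means of 1.86 and 1.38 in the pools.

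The related genes rad51b, rad51c, rad51d, XRCC2 and xrcc3 encode cofactors that assemble into small complexes for strand exchange, and 4 of 5 rose, with a median log2 fold change of 2.68. The log2 fold changes were 3.28 for XRCC2, 2.94 for rad51d, 2.68 for xrcc3 and 2.32 for rad51b. Rad51d was at 6.82 to 14.2 CPM in tumors, against 1.11 and 1.54 CPM in the pools, and xrcc3 at 13.5 to 26.3 CPM, against 2.85 and 3.31 CPM. Rad51b averaged 12.3 ± 4.07 CPM in tumors (SD, n = 10), against 2.56 and 2.36 CPM in the pools. XRCC2 was the faintest of these, at 0.912 to 4.27 CPM in tumors, against 0.29 and 0.317 CPM (6 and 7 counts) in the pools. Its call was lost when either pool was left out, with adjusted p = 0.0133 and 0.012 and the log2 fold change little moved at 3.22 and 3.34. In those fits the remaining pool is assumed to vary as the tumors do. Rad51c did not pass the test: it was at 1.27 to 3.56 CPM in tumors, against 1.01 and 1.77 CPM in the pools, with 1 tumor between the pools (log2 fold change 0.83, adjusted p = 0.0867).

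**Figure D2:**
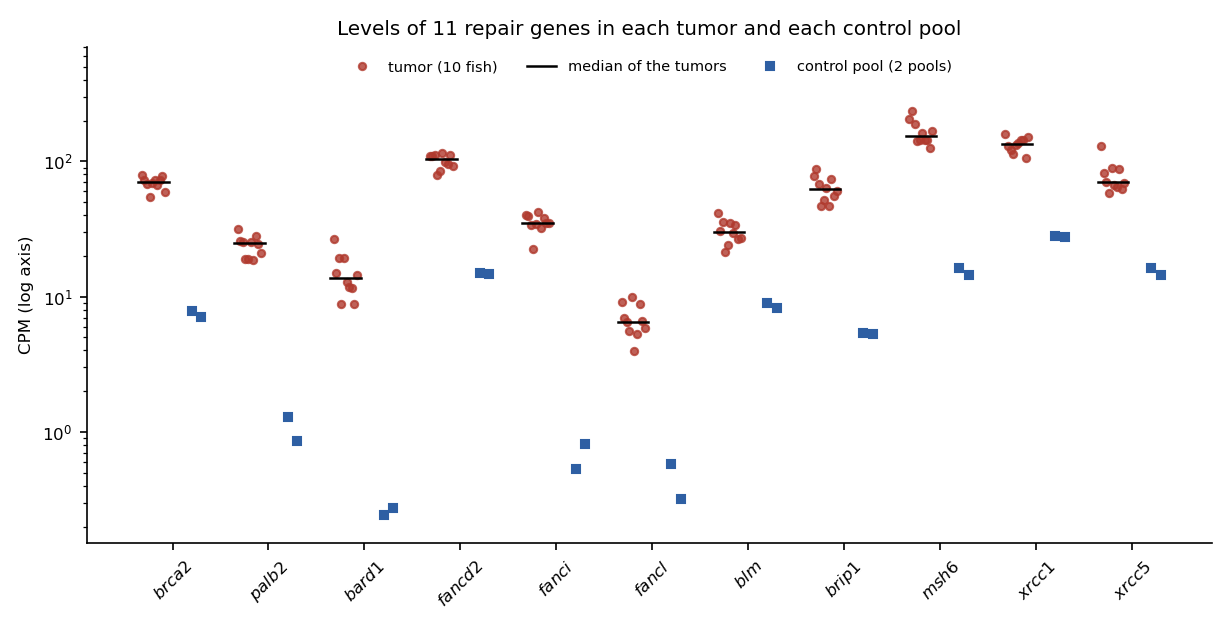
CPM on a log axis for 11 of the genes, with 10 tumors as circles at the left of each column, their median as a bar, and the 2 control pools as squares at the right. For every gene shown the lowest tumor lies above both pools, and bard1 and fanci have the widest gaps.

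The pair that the Fanconi core complex ubiquitinates rose in both its parts, but by unequal amounts. Fancd2 was at 79.0, 104 and 116 CPM in the lowest, median and highest tumor, against 14.9 and 14.6 CPM in the pools (log2 fold change 2.77, SE 0.18, adjusted p = 9.69e-08). Fanci was at 22.5, 35.0 and 42.5 CPM, against 0.532 and 0.816 CPM in the pools (log2 fold change 5.69, SE 0.30, adjusted p = 2.7e-08). Per length, fancd2 had a median of 20.1 FPKM in tumors and a mean of 3.1 FPKM in the pools, while fanci had 7.83 FPKM in tumors and 0.157 FPKM in the pools. The shortfall of fanci against its partner was thus much smaller in tumors than in normal brain. Fanci shares part of its span with polg in the GRCz12tu annotation, and whether the counting used strand is not given in the sources used here.

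Of the 7 core complex genes 4 rose and 0 fell. Fancl, the ubiquitin ligase of the complex, was at 3.98, 6.54 and 9.95 CPM in the lowest, median and highest tumor, against 0.58 and 0.317 CPM in the pools (log2 fold change 3.93, SE 0.44, adjusted p = 9.67e-06). Fancb joins the ligase in the catalytic module. Its level was 1.88 to 5.51 CPM in tumors, against 3 and 2 counts in the pools, a ratio of scaled counts of 29.6 with a 95% counting interval of 12.6 to 91.3. Fancc was at 17.7 CPM in the median and 32.0 CPM in the highest tumor (19.3 ± 5.05 CPM, SD, n = 10), against 1.3 and 1.59 CPM in the pools (log2 fold change 3.73, SE 0.33), and fancg, an adaptor, was at 15.8 to 24.2 CPM, against 5.56 and 4.53 CPM (log2 fold change 2.01, SE 0.20). For these genes tumors and pools did not overlap.

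The other 3 core genes did not pass. Fance, which contacts Fancd2, was the member that lay lowest: 8 of 10 tumors, at 6.79 to 9.37 CPM, were below both pools, which stood at 12.3 and 11.4 CPM. Tumor 2 (11.7 CPM) lay between the pools and tumor 6 (18.6 CPM) above them. Its log2 fold change was -0.29 (SE 0.30, adjusted p = 0.411). Without tumor 6 it was -0.45 (adjusted p = 0.0504), still not called. Fancf was at 3.41 to 7.39 CPM in tumors, against 4.2 and 3.35 CPM in the pools (log2 fold change 0.48, adjusted p = 0.166). Both genes overlapped normal brain, unlike the subunits named before them.

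Fancm, the translocase that anchors the complex to DNA, was set by a single tumor. It was at 166 CPM in tumor 10, against 6.17 to 14.2 CPM in the other tumors and 4.11 and 3.85 CPM in the pools. All 10 tumors were above both pools, yet the log2 fold change of 2.71 had an SE of 1.43 and an adjusted p of 0.114. Without tumor 10 the log2 fold change was 1.39 with an adjusted p of 0.00232, past the threshold. DESeq2 gave 1.36 and 1.04e-05, with default settings that can replace an outlying count in a group of this size. Whether it replaced the count of tumor 10 was not checked, so its call is not read as separate support.

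A gene that the names table lists as fanca stands in the counts under the clone name CABZ01081622.1 (ENSDARG00000098241) and so was outside the name rule. This core subunit was at 42.9, 61.5 and 97.9 CPM in the lowest, median and highest tumor, against 9.86 and 11.4 CPM in the pools. Its log2 fold change was 2.60 (SE 0.29, adjusted p = 9.36e-06).

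Of the 3 mismatch repair genes described 2 rose, and the median log2 fold change was 0.93. Msh6, for single mispairs, was at 126, 154 and 237 CPM in the lowest, median and highest tumor, against 16.3 and 14.4 CPM in the pools (log2 fold change 3.44, SE 0.26, adjusted p = 5.11e-07). Msh3, for longer loops, was at 10.3, 13.2 and 20.8 CPM, against 7.1 and 7.75 CPM (log2 fold change 0.93, SE 0.26, adjusted p = 0.00716). Tumors and pools were apart for both genes. The call of msh3 was the least firm of the 27. It was lost without tumor 1, 3, 7 or 10 (adjusted p = 0.0106 to 0.0113) and without either pool (log2 fold change 0.87 and 0.99). The test against a 1.5-fold change (adjusted p = 0.0672) and library b alone (0.0202) did not call it. Nor did limma on log2(FPKM + 1) (adjusted p = 0.0125) or the fit with a block on replicate numbers (0.0103). The difference between the changes of msh6 and msh3 was not itself tested.

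Mlh3, a MutL gene best known for crossovers in meiosis, lay just outside the threshold at 14.4 to 29.5 CPM in tumors, against 11.6 and 10.5 CPM in the pools (log2 fold change 0.87, SE 0.26, adjusted p = 0.0107). Every tumor was above both pools for mlh3, and it was called without tumor 2, 3, 4 or 8 (adjusted p = 0.0073, 0.00778, 0.00676 and 0.00458) and by DESeq2 (0.00347). Msh3 at 0.00716 and mlh3 at 0.0107 are the members just inside and just outside the threshold.

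Neither of the MutS genes of meiosis was called. Msh5 had at most 3 counts in any sample and was not tested. Msh4 was read at 8.27 to 46.7 CPM in 9 tumors, at 0.394 CPM (9 counts) in tumor 4, and at 21.8 and 22.8 CPM in the pools (log2 fold change -0.07, SE 0.85, adjusted p = 0.944). Against the pools as labelled, 5 tumors lay above and 5 below. Msh4 was also the member with the widest gap between the control letters, at 16.6 CPM in library a and 28.1 CPM in library b. Tumors 1, 2, 5, 6 and 10, at 17.1 to 26.9 CPM, lay between those letter values. Germ cell and meiosis markers gave a summed 2.94 to 6.23 CPM in tumors, against 6.33 and 5.94 CPM in the pools, with 0 of 9 tested higher and 2 lower (spo11 and tdrd7a), and dmc1, the meiotic strand exchange gene, was at no more than 0.169 CPM in any tumor.

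The 4 genes of end joining and single-strand break repair all rose, with a median log2 fold change of 2.04. Xrcc1, a scaffold for base excision and single-strand repair, was at 106, 135 and 159 CPM in the lowest, median and highest tumor, against 27.9 and 27.5 CPM in the pools (log2 fold change 2.27, SE 0.16, adjusted p = 2.79e-07). Xrcc5 encodes the larger Ku subunit, which caps broken ends, and was at 58.5, 69.8 and 130 CPM, against 16.3 and 14.4 CPM (log2 fold change 2.35, SE 0.30, adjusted p = 2.33e-05). The smaller Ku subunit xrcc6 had a smaller change (51.7 to 73.4 CPM in tumors, against 22.2 and 26.6 CPM in the pools, log2 fold change 1.41, SE 0.14). So had xrcc4, the scaffold of the end joining ligase (26.2 CPM in the median and 37.3 CPM in the highest tumor, against 8.99 and 7.21 CPM in the pools, log2 fold change 1.80, SE 0.26). Per length the Ku pair stood at medians of 23.9 FPKM (xrcc5) and 28.8 FPKM (xrcc6) in tumors, and at means of 5.49 and 11.5 FPKM in the pools.

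Of the genes that share only the name 1 of 2 was called. Rad54l2, a nuclear receptor cofactor with a helicase domain, was at 77.6 to 105 CPM in tumors, against 92.1 and 95.2 CPM in the pools (log2 fold change -0.02, SE 0.12, adjusted p = 0.902). Xrcc6bp1, the mitochondrial protease Atp23, was at 9.37 to 18.7 CPM, against 7.15 and 5.85 CPM (log2 fold change 1.06, SE 0.22, adjusted p = 0.00104). Its call was lost without control pool 2 (log2 fold change 0.92). It was also lost in the test against a 1.5-fold change (adjusted p = 0.0159) and with a block on replicate numbers (0.0181). In the pools rad54l2 had the highest mean per length of the members described, at 15.9 FPKM, and xrcc1 had that place in tumors, at a median of 47.7 FPKM.

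The genes that work with these members, none of which the name rule takes, changed mostly in the same direction. Of 34 tested partners in homologous recombination 26 were higher and 2 were lower, and their median log2 fold change was 2.26. The largest rises were those of eme1, a subunit of the Mus81 nuclease (13.1 to 33.0 CPM in tumors, against 0.242 and 0.408 CPM in the pools), and of RECQL4, a helicase of the Blm family (log2 fold change 5.94). The 2 that fell were recql5 (-1.05), a helicase that counters recombination, and brcc3 (-0.64), a deubiquitinase of the Brca1-A complex. The single-strand binding trimer rpa1, rpa2 and rpa3 had log2 fold changes of 2.88, 3.54 and 2.88.

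Among 12 tested Fanconi partners 8 were higher and 0 lower (median 1.53). They were led by faap24, the binding partner of Fancm (log2 fold change 7.11), and by ube2t, the ubiquitin-conjugating enzyme that serves Fancl (6.37). Both were at or under 0.338 CPM in the pools and at 11.5 CPM or more in every tumor. All 13 mismatch repair partners rose (median 3.05), led by the nuclease exo1 (5.23) and the sliding clamp pcna (4.83), and pms2, a MutL endonuclease subunit, had a log2 fold change of 2.61. Most of these 13, namely pcna, lig1, pold1 to pold3 and rfc1 to rfc5, also replicate DNA, so the list does not single out mismatch repair. End joining partners were higher in 6 of 8 (median 1.27, led by polm at 2.40 and tdp1 at 2.30). Counted once each, and together with the base excision, nucleotide excision, translesion and checkpoint genes given under the other observations, 87 of 117 repair partners were higher and 3 lower, with a median of 1.33. The shares of all genes given above, 22.8% and 24.9%, are the background for these counts, and the lists were chosen with results of these data known.

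Several other gene groups moved with the same contrast. All 15 proliferation markers rose (median 5.90), and their sum was 4250 to 6963 CPM in tumors, against 130 and 134 CPM in the pools. Mature neuron markers were lower for 13 of 14, at a sum of 1854 to 3829 CPM, against 9673 and 9616 CPM, with elavl3 the one that was higher. Microglia and macrophage markers were higher for 9 of 14, at 2258 to 5070 CPM, against 707 and 709 CPM. T cell markers were higher for 2 of 6, and erythrocyte markers for 0 of 7. The part of these cell types in the change of the repair genes was not tested, and in bulk tissue more cells of a kind and more RNA per cell cannot be told apart. No cycling or neuronal marker was at 0 in all tumors or in both pools.

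Across the 10 tumors the members varied as other genes of their level do. Their median coefficient of variation was 22.5%, beside 20.24% for 12733 genes between 3.29 and 113 CPM. The steadiest were xrcc6 (10.2%), rad54l2 (10.3%), brca2 (11.4%) and xrcc1 (12.2%), and the most variable were fancm (189%), msh4 (61.4%) and XRCC2 (39.9%). The sum over the tested members was 992 to 1511 CPM in tumors, against 338 and 334 CPM in the pools. Tumor 4 had the lowest sum and tumor 1 the highest.

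In some tumors most members lay on the same side of their own tumor medians. Tumor 4 was the lowest of the 10 for 17 of 34 members, with a median deviation of -0.37 from the tumor median on the log2(CPM + 0.5) scale, and tumor 9 was the lowest for 11 (-0.18). Tumor 1 was the highest for 11 members (median deviation 0.23) and tumor 2 for 9 (0.17), with 32 of 34 above the tumor median in tumor 2. Among genes with a median of at least 1 CPM in tumors, tumor 1 was the highest for 15.7% of those outside the chromosome of xrcc5. On that chromosome it was the highest for 31.9%, and the 11 members include bard1, fancb and xrcc5, which lie there. Tumor 2 was the highest for 15.1% of those outside the chromosome of rad50. The share of all genes for which tumor 4 or 9 was the lowest is not given here. The median deviation of all genes lay between -0.01 and 0.01 in every tumor. Scaling, and the centering of each gene on its own tumor median, hold that value near 0. It is therefore no background for the deviations of the members. Mki67, which marks cycling cells, was lowest in tumor 4 (458 CPM) and highest in tumor 1 (962 CPM), followed by tumors 8 (944 CPM) and 2 (925 CPM), against 12.2 and 13.5 CPM in the pools.

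**Figure D3:**
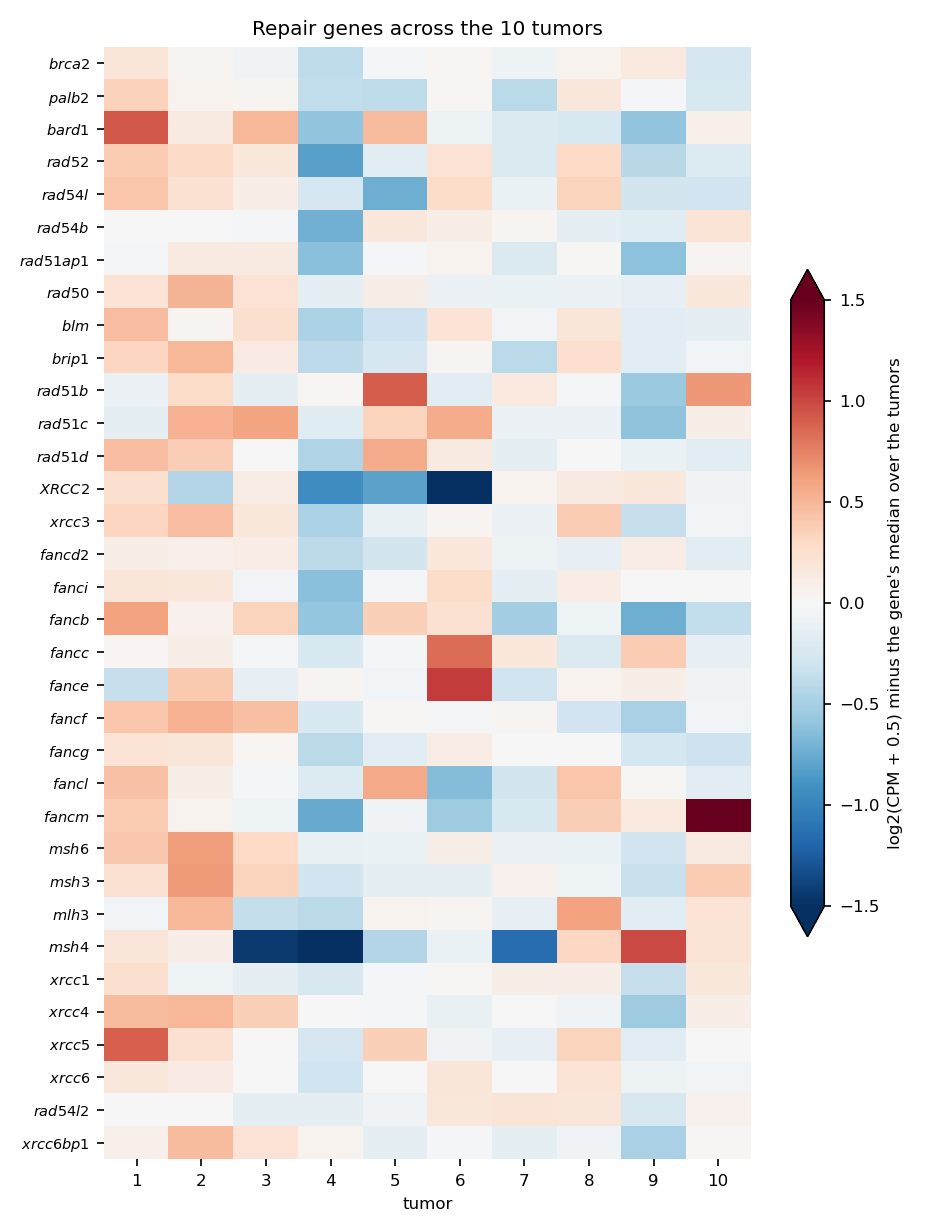
Deviation of each of the 34 genes from its own median over the 10 tumors, in log2(CPM + 0.5), with red above and blue below; the color scale stops at 1.5. Tumor 4 is blue for nearly every gene and lies past the end of the scale for msh4. Other strong colors include XRCC2 (blue), fancc and fance in tumor 6, fancm in tumor 10, rad51b in tumor 5, and bard1 and xrcc5 in tumor 1. Msh4 also varies strongly among the other tumors.

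The relation to mki67 was computed for 6 members over the 10 tumors, on the log2(CPM + 0.5) scale with two-sided permutation tests of 100000 resamples and adjustment over the 6, and is given for 4 of them. For blm, Pearson's r was 0.78 (p = 0.00836, adjusted p = 0.0502) and Spearman's rho was 0.79 (p = 0.00863, adjusted p = 0.0477). For msh6, r was 0.67 (p = 0.0336, adjusted p = 0.0672) and rho was 0.76 (p = 0.0159, adjusted p = 0.0477). So the rank relation passed 0.05 for these genes and the linear one did not.

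The relations of brca2 and fancd2 did not pass by either measure. For brca2, r was 0.58 (p = 0.079, adjusted p = 0.118) and rho was 0.53 (p = 0.123, adjusted p = 0.184). For fancd2, r was 0.48 (p = 0.163, adjusted p = 0.195) and rho was 0.27 (p = 0.449, adjusted p = 0.49). Tumors 4 and 1 were farthest from the median of mki67. Without them r was 0.51 for blm, 0.65 for msh6, -0.04 for brca2 and -0.04 for fancd2. Leaving out the ends of the range of mki67 can by itself lower r, so the fall is not read further. Each tumor was read in both lanes, so the lanes do not divide the tumors.

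Fancm in tumor 10 was not alone in its neighborhood. The order of genes was taken from the GRCz12tu annotation, another assembly than the GRCz10 of the counts, and the neighbors were looked at because fancm had been seen to stand apart. Slc25a47b, a mitochondrial carrier gene, was at 102 CPM in tumor 10, against 2.66 to 4.71 CPM in the other tumors and 9.23 and 8.66 CPM in the pools. Soul3, whose span overlaps fancm, was at 133 CPM, against 6.83 to 11.9 CPM in the other tumors and 19.86 and 21.03 CPM in the pools.

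Chrm5a, a muscarinic acetylcholine receptor gene, was at 147 CPM in tumor 10, against 0.123 to 1.32 CPM in the other tumors and 0.773 and 0.906 CPM in the pools. Smaller excesses were seen for wars (79.8 CPM, against 16.2 to 34.1 CPM in the other tumors) and papl (14.3 CPM, against 3.44 to 7.57 CPM). The faint gene zgc:194887, between papl and chrm5a, was at 4.19 CPM, against 0.0 to 0.458 CPM, by ratio a larger excess than those of slc25a47b, fancm and soul3. CABZ01118758.1, which lies between soul3 and papl, was at 22.1 CPM, against 15.1 to 19.9 CPM. The next matched gene on each side lay within the range of the other tumors, grem1b past chrm5a (0.482 CPM, against 0.124 to 0.744 CPM) and BEGAIN past wars (17.7 CPM, against 7.55 to 35.3 CPM). Past BEGAIN, CABZ01078849.1 and dync1h1 were again highest in tumor 10, at 54.7 CPM, against 32.4 to 44.8 CPM, and at 1319 CPM, against 731 to 1040 CPM. The median deviation over all 589 genes of that chromosome in tumor 10 was 0.00. Reads of soul3 and fancm cannot be told apart where the genes overlap, if the counting did not use strand.

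**Figure D4:**
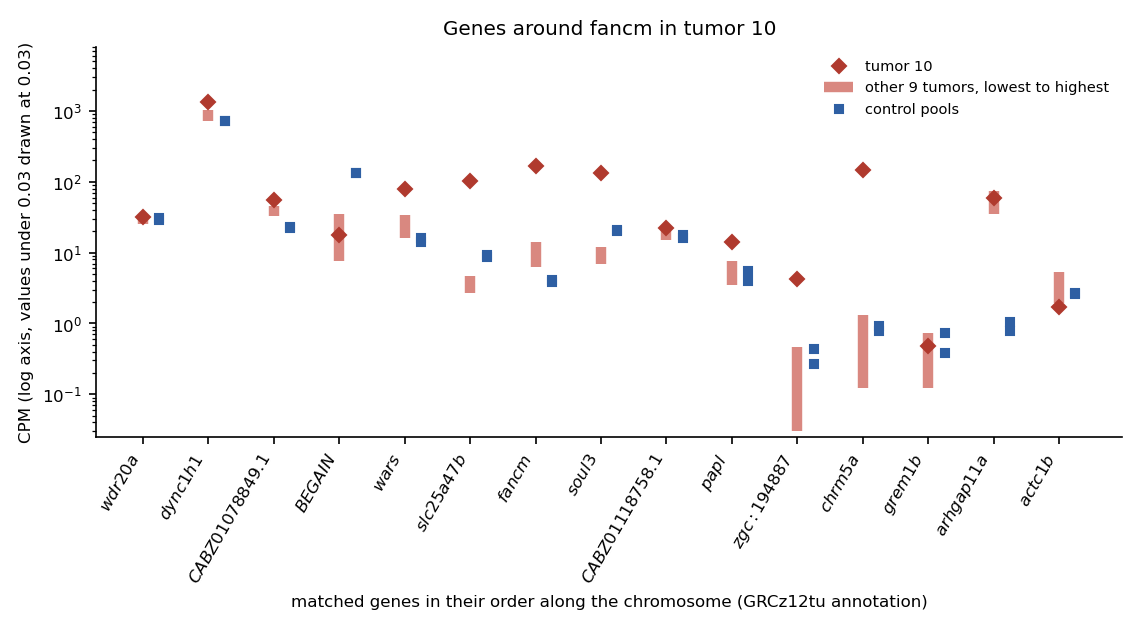
CPM on a log axis for fancm and its matched neighbors in their order along the chromosome: tumor 10 as diamonds, the range of the other 9 tumors as bars, the control pools as squares. Tumor 10 lies above the other tumors from wars to chrm5a, by the most at slc25a47b, fancm, soul3, zgc:194887 and chrm5a, and at or within their range for BEGAIN, grem1b and arhgap11a.

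Some of the other members that stood apart in 1 tumor lay on chromosomes whose genes were shifted as a whole in that tumor. Genes with a median of at least 1 CPM in tumors were placed on the 25 chromosomes of GRCz12tu (15284 genes), and the median deviation of each chromosome was taken in each tumor, after the values of the members had been seen. In 8 of 250 pairs of chromosome and tumor it was 0.1 or more from 0, and 7 of these 8 held a member, as do 19 of the 25 chromosomes. The chromosome that carries both fancc and fance had a median deviation of 0.28 over 669 genes in tumor 6, and -0.03 to 0.01 in the other tumors. Tumor 6 was the highest of the 10 for 45.1% of its genes, and for 8.59% of the genes of the other chromosomes. In tumor 6 fancc was at 32.0 CPM and fance at 18.6 CPM, deviations of 0.83 and 1.04, larger than that of their chromosome.

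In tumor 1 the chromosome of bard1, fancb and xrcc5 had a median deviation of 0.17 over 565 genes, and each of the 3 members was highest in tumor 1, with deviations of 0.93, 0.61 and 0.89. The same chromosome had a median deviation of 0.10 in tumor 5, where bard1, fancb and xrcc5 deviated by 0.48, 0.36 and 0.36 and none was highest. Also in tumor 5, the chromosome of xrcc6 had a median of -0.15 over 523 genes, beside a deviation of -0.00 for xrcc6.

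The chromosome of mlh3 was raised in tumors 2, 8 and 10, by 0.36, 0.30 and 0.19 over 568 genes, and mlh3 deviated by 0.49, 0.60 and 0.20 there. No such shift was seen for the chromosomes of rad50 in tumor 2 (0.02) or of rad54b (-0.01) and fanci (0.01) in tumor 4. The part of these chromosome-wide shifts in the values of the members was not tested.

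**Figure D5:**
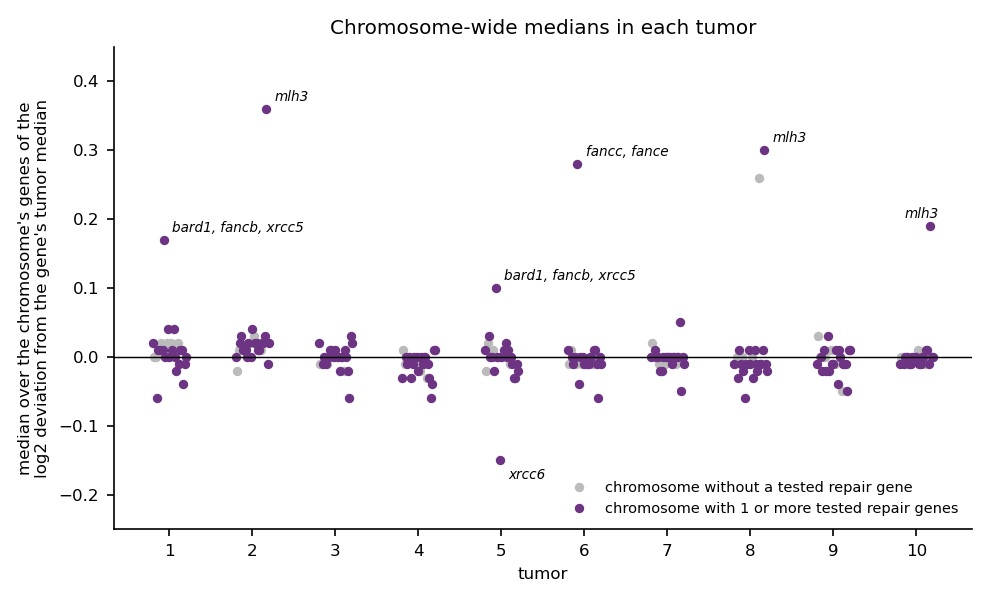
Median deviation of the genes of each chromosome from their own tumor medians, in log2(CPM + 0.5), for each of the 10 tumors; a point is a chromosome and purple marks those with tested repair genes. Most points lie close to 0, and the labelled ones reach from -0.15 (xrcc6, tumor 5) to 0.36 (mlh3, tumor 2).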

How the data were processed

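Brain tumor and normal brain RNA was read as 24 TruSeq libraries of 12 RNA samples in single-end reads of 50 bases. The authors deposited whole-number read counts per gene, without normalization, and FPKM computed from them with the exonic length of each gene, a deposited column of another unit in base pairs. For the larval libraries of the study, reads were aligned to GRCz10 with GSNAP and uniquely mapped reads were counted with HTSeq; the tumor libraries were assumed to be processed likewise. Reads that near-identical copies of a gene share are thus missing, and 12 members overlap another protein-coding gene in GRCz12tu, so their values are uncertain. A further table deposited by the authors holds their own DESeq2 comparison (log2 fold changes and p-values) and was not used.

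Counts of libraries a and b were summed per label. Tumors and controls were compared with edgeR 4.0.16 in R 4.3.3 (TMM scaling, filterByExpr, quasi-likelihood test, Benjamini-Hochberg adjustment over all genes, SE taken as the log2 fold change over the root of F), which was tested on simulated data. The thresholds were those of the study, an adjusted p no larger than 0.01 with a change of at least 1.5-fold. CPM are TMM-scaled. Alternatives were DESeq2 1.42.0, other scalings and filters, a test against a 1.5-fold change, limma 3.58.1 on log2(FPKM + 1) and log2(FPKM + 0.1), single libraries, control libraries summed by letter, leaving out each sample, and a block on replicate numbers. The name rule takes 38 genes, 3 of which are not reported here, and every other member is accounted for. Values by sample are given for 12 chosen genes, the 5 largest rises beyond these, and members in which 1 tumor stood apart by Dixon's criterion; of partner lists the 2 largest rises and any member called against the majority are named, and rpa1 to rpa3, pms2 and dmc1 were named in addition. The members and lists were chosen with earlier results of these data known. Gene order and names came from RefSeq's GRCz12tu annotation, in which 20735 of 27039 protein-coding genes matched a gene of the counts. Its coordinates were used for gene order, chromosomes and overlaps of spans, and sequences were not used here.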

Additional observations from a re-analysis of the deposited data

Results flagged for a closer look

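For each of the 34 tested members the gap between the extreme tumor and its nearest neighbor was divided by the range of the 10 tumors, in CPM. In 7 members this exceeded Dixon's 95% critical value for 10 samples. Chance gives about 1 in 20 where values are normally distributed, which CPM need not be. The share of all genes past this value is not given here, so the 7 are not read as an excess. On the log2(CPM + 0.5) scale 4 members exceeded it: fancm, rad54b and fanci again, and msh4, low in tumor 4 (gap 0.576), while rad50 (0.453), fancc (0.432), fance (0.464) and xrcc5 (0.463) lay under the critical value. No explanation was weighed for any of them.

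The Fanconi core and Ku genes among them were high in 1 tumor. Fancm in tumor 10 had a gap of 0.95 of the range (166 CPM, against a median of 10.4 CPM in the other tumors), and its neighbors are described above. Fancc and fance, which lie on the same chromosome, had gaps of 0.524 and 0.583 in tumor 6 (32.0 CPM, against a median of 17.4 CPM, and 18.6 CPM, against 8.47 CPM). Xrcc5 had a gap of 0.562 in tumor 1 (130 CPM, against a median of 69.3 CPM).

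Rad50 was high in tumor 2, with a gap of 0.51 (107 CPM, against a median of 70.7 CPM in the other tumors). The members that were low were rad54b and fanci in tumor 4 (gaps 0.503 and 0.467, 3.98 CPM, against 6.89 CPM, and 22.5 CPM, against 35.2 CPM). Tumor 4 was the lowest tumor for 17 of the 34 members, and the share over all genes is not given here.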

How the results depend on the processing

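The count of members called higher was 23 to 29 over the settings with all samples, with 23 under a minimum of 10 counts in every sample and 29 with DESeq2, and 0 were lower in any setting. That minimum left bard1, rad54b, fancb, fancl and XRCC2 untested for their low pool counts, so the 23 does not mean that their rises failed. Mlh3 was called under it. Leaving out each sample gave 24 to 28 members and 6480 to 10072 genes called, against 9999 with all samples; the lowest counts, 6575 and 6480 genes, came without control pool 1 and control pool 2, where the lone pool is assumed to vary as the tumors do. The labels of tumors and pools share the numbers 1 and 2, and same-numbered samples did not deviate together (r = 0.0116 and 0.012). The pools as labelled differ only by sampling noise, so these r could not show whether same-numbered samples share more than a number. The replicate block leaves tumors 3 to 10 each alone in a block, so its contrast rests on tumors 1 and 2 against the 2 pools. In that fit 7187 genes and 26 members were called. For single members 784 of 810 alternative values kept their direction and side of the threshold, 15 lost the call (msh3 10, xrcc6bp1 3, XRCC2 2), 11 gained it (mlh3 8, fancm 3) and 0 reversed. The 3 gains of fancm came with DESeq2, without tumor 10, and with the replicate block, whose contrast does not use tumor 10. Leaving out each tumor moved r to mki67 between 0.63 and 0.83 for blm, 0.61 and 0.84 for msh6, 0.20 and 0.81 for brca2 and 0.08 and 0.64 for fancd2. It passed 0.05 for blm without tumor 2, 5, 6, 8 or 9 (r = 0.81, 0.83, 0.81, 0.77 and 0.77), and for msh6 without tumor 8 (0.84) and brca2 without tumor 9 (0.81). Scaling by library size gave 0.69 for blm and 0.54 for msh6. The control pools limit every comparison: there are 2, and rad54b and fancb had 3 counts or fewer in each. As labelled, each pool sums an a and a b library, and the sums do not differ beyond sampling noise (1.01). The sums by letter differ by 5.36, so the agreement of the labelled pools does not show how far pools of different fish differ.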

Other observations

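Other repair pathways had smaller shares and medians than the partners in mismatch repair (13 of 13, median 3.05). That list is made mostly of genes that also replicate DNA, and it shares pcna with the proliferation markers. For base excision and checkpoint genes the shares were no smaller than those of partners in homologous recombination (26 of 34), the Fanconi pathway (8 of 12) and end joining (6 of 8). Those partners had medians of 2.26, 1.53 and 1.27. The counts of all these lists are to be read against the 22.8% of all genes that were higher. In base excision repair 10 of 13 tested genes were higher and 0 lower, and the median log2 fold change was 1.18. They were led by the glycosylase neil3 (4.46), at 26.3 to 55.1 CPM in tumors, against 1.79 and 1.86 CPM in the control pools, and by the flap nuclease fen1 (3.83). In nucleotide excision repair 12 of 20 were higher and 1 lower (median 0.69). The largest rises there were ercc1 (2.23), a nuclease subunit that also serves crosslink repair, and gtf2h3 (1.80), and the gene that fell was cetn2 (-1.12), a centrin that binds the damage sensor Xpc and also lies in centrioles. In translesion synthesis 2 of 6 were higher, rad18 (2.68) and polh (1.23), with a median of 0.37, a share near that of all genes. The checkpoint kinases and clamps had 12 of 14 higher and 0 lower (median 1.35), led by chek1 (6.03), at 14.4 to 33.2 CPM in tumors, against 0.483 and 0.227 CPM in the pools, and chek2 (3.85). Differences between these lists were not tested.

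Msh4 in tumor 4 was at 0.394 CPM, against 8.27 to 46.7 CPM in the other tumors. Its neighbors on either side, zgc:66313 and ktn1, were at 4.37 CPM (5.9 to 17.6 CPM in the other tumors) and 150 CPM (125 to 190 CPM) in tumor 4. Past ktn1, peli2 (21.7 CPM, against 22.7 to 45.9 CPM) and tmem260 (10.5 CPM, against 12.1 to 20.2 CPM) were lowest in tumor 4. The next matched genes, otx2 past tmem260 and ahsa1b past zgc:66313, lay within the range of the other tumors. A chromosome with no tested member had a median deviation of 0.26 over 630 genes in tumor 8, where 43.5% of its genes were highest.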
